A study of Mus musculus with 10 samples.

Results

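The genes that oxidise cysteine, make taurine and bring taurine into the cell were followed in RNA from 10 mouse hearts. The set was defined by gene symbol as Cdo1, Csad, Ado, Gadl1, Slc6a6, Mpst, Cth and Cbs, and 5 of these 8 genes had a row among the 11790 genes of the deposited table. Cdo1, Csad, Ado, Slc6a6 and Mpst are described here. Gadl1, Cth and Cbs matched no row and were not analysed here. In every row the highest heart reached at least 1.00 FPKM, a unit that counts sequenced fragments relative to gene length and to the counted reads of the heart. The set was put together around Cdo1 with its difference between genotypes already known. Genotype differences of the 5 genes are therefore given as descriptions with their errors, and no p value is read for them.

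The hearts came from 5 A-PDK1KO mice, in which 3-phosphoinositide-dependent kinase 1 was removed from adipocytes, and from 5 control mice carrying the floxed gene, labelled PDK1 flox/flox. Tissue was taken from randomly fed mice aged 10 to 11 weeks. The sources used here name neither the Cre driver nor the sex or diet of the mice. The kinase is encoded by Pdpk1, whose level in heart RNA was 2.73 to 4.04 FPKM in A-PDK1KO hearts and 3.14 to 3.77 FPKM in control hearts (limma adjusted p = 0.905). The deletion was made in adipocytes, so the heart level does not check the genotype labels. All 8 cardiomyocyte markers were present, with sums of 14740 to 16634 FPKM in A-PDK1KO hearts and 15566 to 18310 FPKM in control hearts. The summed fibroblast, endothelial, mural, macrophage and erythroid markers each overlapped between genotypes.

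Cysteine dioxygenase, the product of Cdo1, adds oxygen to cysteine to give cysteine sulfinate. The decarboxylase made from Csad turns the sulfinate into hypotaurine, which is then oxidised to taurine. Ado encodes a second thiol dioxygenase, which makes hypotaurine from cysteamine, a product of coenzyme A breakdown. Heart muscle holds much taurine and takes most of it from the blood through the sodium- and chloride-dependent transporter encoded by Slc6a6. Mice that lack this transporter develop cardiomyopathy. Mpst encodes a sulfurtransferase that takes the competing route from cysteine, through 3-mercaptopyruvate to sulfide. Cbs and Cth encode the transsulfuration enzymes that make cysteine from homocysteine, and Gadl1 a decarboxylase related to Csad.

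Cdo1 was higher in every A-PDK1KO heart than in any control heart, while the levels of the other 4 genes overlapped between genotypes. Mean Cdo1 was 3.86 ± 1.27 FPKM in A-PDK1KO hearts and 0.805 ± 0.467 FPKM in control hearts (SD, n = 5 each), a ratio of 4.79. The ratio of means was 1.16 for Slc6a6, 1.12 for Csad, 0.983 for Ado and 0.986 for Mpst. Of the 5 genes, 1 passed the threshold of the test across the table, against 2.08% of all 9987 genes tested. The same gene was the 1 of 5 whose groups did not overlap, against 4.96% of all tested genes. Because Cdo1 led to the choice of the set, nothing is read from either count. All 5 genes passed the filter of the test, which required a 10-heart mean of 1 FPKM or above, and Cdo1 passed it through its level in A-PDK1KO hearts.

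**Figure D1:**
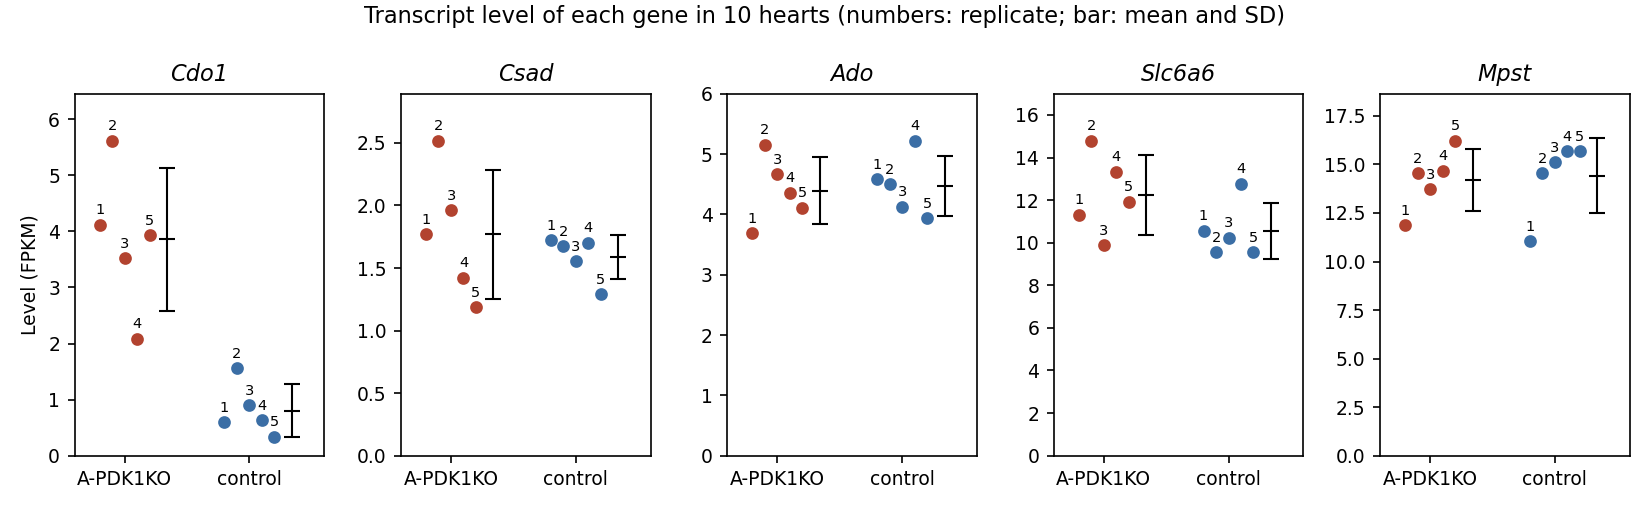
Level of each gene in FPKM (vertical axis, starting at 0 in each panel) in 5 A-PDK1KO and 5 control hearts, with the replicate number above each point and the mean with its SD as a bar beside each group. The Cdo1 points of the A-PDK1KO hearts lie between 2.08 and 5.62 FPKM and those of the control hearts between 0.341 and 1.56 FPKM, and the points of the other 4 genes overlap.

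Cdo1 is the enzyme that commits cysteine to oxidation. Its level was 4.12, 5.62, 3.52, 2.08 and 3.93 FPKM in A-PDK1KO replicates 1 to 5, against 0.592, 1.56, 0.905, 0.629 and 0.341 FPKM in control replicates 1 to 5. The lowest A-PDK1KO heart, replicate 4, stood above the highest control heart, replicate 2. These values rested on 39 to 90 recovered reads per A-PDK1KO heart and 6 to 26 reads per control heart. The control levels were therefore the least precise of those described here. Cdo1 was also the most variable of the 5 genes within genotypes. Its pooled SD on the log2(FPKM + 1) scale was 0.38, against 0.14 to 0.20 for the other 4. The span between its highest and lowest heart was 16.5-fold, which includes the difference between genotypes. On the log2(FPKM + 1) scale the difference was 1.42 ± 0.20 (SE, A-PDK1KO minus control), which ranked 3 of 9987 genes from the highest. That scale understates the change of low genes. With a pseudocount of 0.1 in place of 1 the difference was 2.20, and on recovered reads it was 2.31.

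Atrial tissue was unevenly sampled, and Cdo1 was compared within hearts of the same kind. Myl7, the atrial myosin light chain, was under 10 FPKM in A-PDK1KO replicates 1, 2 and 4 and control replicates 1, 3 and 4. In those 6 hearts Cdo1 spanned 2.08 to 5.62 FPKM in the A-PDK1KO group and 0.592 to 0.905 FPKM in the control group, and the log2 difference was 1.47. In the other 4 hearts, with Myl7 between 35.0 and 85.9 FPKM, A-PDK1KO replicates 3 and 5 had 3.52 and 3.93 FPKM of Cdo1, and control replicates 2 and 5 had 1.56 and 0.341 FPKM. As all A-PDK1KO hearts lay above all control hearts, the groups could not overlap in either kind of heart. With Myl7 as a covariate the difference was 1.43.

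Cdo1 is also strongly expressed in fat, so adipocyte markers were set beside it. Of 10 adipocyte markers 4 had a row (Cfd, Fabp4, Pparg and Lipe), and Adipoq, Plin1, Lep, Retn, Cidec and Car3 were not analysed here. The summed level of the 4 was 88.5 to 152 FPKM in A-PDK1KO hearts and 87.0 to 133 FPKM in control hearts, nearly all of it from Fabp4, which endothelial cells also express. Cfd, the secreted protease adipsin of fat cells, was listed at 0 in A-PDK1KO replicates 1, 2 and 4, at 0.295 FPKM in replicate 3 and at 1.36 FPKM in replicate 5. In control hearts it was listed at 0 in replicates 1 and 4 and at 0.642, 0.346 and 1.11 FPKM in replicates 2, 3 and 5. The A-PDK1KO heart with the highest Cdo1, replicate 2, had Cfd at 0 and the highest Fabp4 (139 FPKM) and Lipe (9.12 FPKM) of all 10 hearts. Its Pparg was 3.37 FPKM, within the range of 2.86 to 3.72 FPKM of the A-PDK1KO hearts. Pparg was at 4.14, 3.11, 3.92, 4.69 and 4.05 FPKM in control replicates 1 to 5. The part of these markers in the level of Cdo1 was not tested. Of 5 brown adipocyte markers 3 had a row (Cidea, Cox8b and Cox7a1, all also expressed by heart muscle), with sums of 3117 to 3476 FPKM in A-PDK1KO hearts and 3171 to 3590 FPKM in control hearts. Of 6 hepatocyte markers 2 had a row, Alb and Cyp2e1, and their sum stayed between 0.840 and 1.92 FPKM in A-PDK1KO hearts and between 0.787 and 2.49 FPKM in control hearts. In RNA from whole tissue a change in the number of cells of a type and a change in RNA per cell cannot be told apart.

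Csad encodes the decarboxylase that acts next after cysteine dioxygenase. Its level was 1.77, 2.52, 1.96, 1.42 and 1.18 FPKM in A-PDK1KO replicates 1 to 5, against 1.72, 1.67, 1.55, 1.70 and 1.29 FPKM in control replicates 1 to 5. A-PDK1KO hearts held both the highest and the lowest value, and their SD of 0.515 FPKM stood beside one of 0.178 FPKM in control hearts. The log2 difference was 0.08 ± 0.12 (SE), and it was -0.01 without A-PDK1KO replicate 2. Between 47 and 94 reads per heart lay behind these values. Csad (mm10 chromosome 15, 102176999 to 102204724, minus strand) shares 278 exon bases with Zfp740 on the other strand. No source used here gives the strand setting of the counting, so a small part of its level is uncertain.

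Ado, the dioxygenase of the cysteamine route, stood at 3.68, 5.16, 4.67, 4.36 and 4.11 FPKM in A-PDK1KO replicates 1 to 5. In control replicates 1 to 5 it stood at 4.58, 4.50, 4.13, 5.22 and 3.93 FPKM. The groups covered nearly the same range, and the log2 difference was -0.02 ± 0.09 (SE). Its sign turned with the scaling, to 0.03 when the scaling ignored mitochondrially encoded and haemoglobin transcripts. The sign also turned with 1 heart left out, to 0.03 without A-PDK1KO replicate 1 and to 0.03 without control replicate 4. Ado lies on chromosome 10, 67544511 to 67548955, minus strand. Its FPKM values did not convert to whole reads with the gene length used, so no read count is given for it.

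Slc6a6, the taurine transporter gene, was the second most abundant of the 5 per unit length. It was at 11.3, 14.8, 9.88, 13.3 and 11.9 FPKM in A-PDK1KO replicates 1 to 5, against 10.6, 9.55, 10.2, 12.8 and 9.56 FPKM in control replicates 1 to 5. Control replicate 4 lay above 3 of the 5 A-PDK1KO hearts, and A-PDK1KO replicate 3 lay below 3 of the 5 control hearts. The log2 difference was 0.19 ± 0.11 (SE), and it stayed between 0.13 and 0.26 with 1 heart left out. The lower of these came without A-PDK1KO replicate 2. The gene (chromosome 6, 91684053 to 91759066, plus strand) had 815 to 1284 reads per heart, the most of the 4 genes with read counts.

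Mpst, the gene of the sulfurtransferase route, was at 11.9, 14.6, 13.7, 14.7 and 16.2 FPKM in A-PDK1KO replicates 1 to 5. In control replicates 1 to 5 it was at 11.0, 14.5, 15.1, 15.7 and 15.7 FPKM. Control replicate 1 was the lowest of all 10 hearts, and the other 4 control hearts lay within the range of the A-PDK1KO hearts. The log2 difference was -0.02 ± 0.10 (SE). It was -0.10 without control replicate 1 and 0.05 when the scaling ignored mitochondrial and haemoglobin transcripts. Mpst lies on chromosome 15, 78406416 to 78414013, plus strand. The neighbouring gene Tst, another sulfurtransferase, starts on the opposite strand and shares no exon bases with it.

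**Figure D2:**
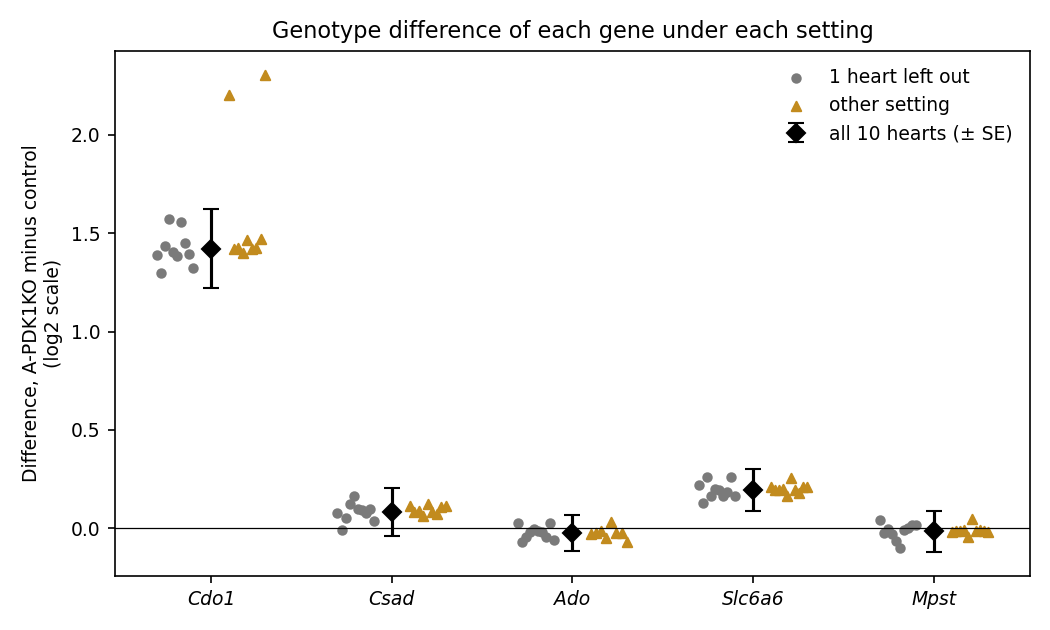
Difference between A-PDK1KO and control hearts on the log2 scale (vertical axis) for each gene, from all 10 hearts with its SE (diamond), with 1 heart left out (circles) and under the other settings tried (triangles). Cdo1 lies between 1.30 and 1.57 with 1 heart left out and reaches 2.20 and 2.31 with the smaller pseudocount and on recovered reads, and the other genes lie between -0.10 and 0.26.

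Per unit length, mean levels over the 10 hearts ran from Mpst (14.3 FPKM) through Slc6a6 (11.4), Ado (4.43) and Cdo1 (2.33) to Csad (1.68). Mpst was above Slc6a6 in 9 of 10 hearts, the exception being A-PDK1KO replicate 2, and their ranges overlapped. Slc6a6 was above Ado in all 10. The place of Cdo1 depended on the genotype, which restates the difference that led to the choice of the set. It was above Csad in 5 of 5 A-PDK1KO hearts and in 0 of 5 control hearts, and in A-PDK1KO replicates 1 and 2 it also exceeded Ado. By mean level, Mpst ranked 1995 and Csad 8246 from the highest among the 9987 tested genes.

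Hearts of the same genotype also differed, and in the A-PDK1KO group replicate 2 was the highest for Cdo1, Csad, Ado and Slc6a6. In that heart 34.3% of counted reads came from mitochondrially encoded genes, while the other A-PDK1KO replicates had 36.1% to 41.5%. It also had 10723 genes reaching 1 FPKM, and the other A-PDK1KO replicates had 9758 to 10064. Control replicate 4 was the highest control heart for Ado and Slc6a6 and, by a small margin, for Mpst. Its Cdo1, at 0.629 FPKM, was the control median. This heart had the lowest mitochondrial share of all hearts, at 32.7%. The part of these shares in the levels was not tested. Without A-PDK1KO replicate 2 the mean of Cdo1 in the A-PDK1KO group was 3.42 ± 0.923 FPKM and that of Csad 1.58 ± 0.348 FPKM (SD).

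The 5 genes were next compared pair by pair for shared variation, using deviations from the genotype means, which hold no difference between genotypes. Over 10 hearts Csad and Ado had the highest correlation of the 10 pairs, with Pearson's r = 0.64 (exact two-sided permutation within genotypes, p = 0.0744, adjusted p = 0.440). Spearman's rho was 0.75 (exact permutation p = 0.0301, adjusted p = 0.301), and r was 0.48 without the 2 hearts farthest from the median of Csad. For Cdo1 and Csad, the consecutive enzymes, r was 0.55 (exact permutation p = 0.132, adjusted p = 0.440) and rho was 0.32 (exact permutation p = 0.400, adjusted p = 0.846), with r = 0.58 without the 2 farthest hearts. For Ado and Slc6a6 r was 0.59 (exact permutation p = 0.103, adjusted p = 0.440) and rho was 0.44 (exact permutation p = 0.244, adjusted p = 0.814), with r = 0.42 without the 2 farthest hearts. With median-of-ratios scaling the value for Ado and Slc6a6 was -0.13. With all hearts 0 of the 10 pairs passed after Benjamini-Hochberg adjustment, and 0 had an unadjusted exact permutation p under 0.05 for r.

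The genes most like each of these 5 were found by the same deviations, among the tested genes with names, as a description over 10 hearts without a test. For Cdo1 they were Zfp330 (r = 0.94, rho = 0.78), Spcs1 (0.92, 0.85), Gatd1 (0.89, 0.92), Mtrf1 (0.89, 0.75) and Nt5dc1 (0.88, 0.90). Spcs1 encodes a subunit of the signal peptidase complex and Mtrf1 a mitochondrial release factor. None of the 5 differed between genotypes by the test. For Spcs1 r was 0.64 with median-of-ratios scaling. The closest gene was Nop58 for Csad (r = 0.95), Ypel2 for Ado (0.995), Fli1 for Slc6a6 (0.98) and Inca1 for Mpst (0.98). Abcf3 and Tapbpl came next for Csad, Hmgxb4 and Sprtn for Ado, Plekha5 and AU022252 for Slc6a6, and Mrpl4 and Abca9 for Mpst, with r between 0.93 and 0.98. For Csad and Abcf3 r was 0.58 with median-of-ratios scaling. These hearts share the scaling to counted reads, and each of these r values is among the highest found over the whole table.

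Around these genes, 55 further genes of sulfur amino acid metabolism in 8 lists were tested. In A-PDK1KO hearts 1 of the 55 rose and 0 fell, against 2.08% of all tested genes called. Without adjustment, 11 were higher and 1 lower at a limma p under 0.05, which is 21.8% of them, against 15.6% of all tested genes. The median log2 difference was 0.04 in the 55 and 0.02 over all tested genes, and 60.0% and 54.6% of them lay above 0.

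The gene that rose was Dpep1, whose dipeptidase splits cysteinylglycine, the last step in freeing cysteine from extracellular glutathione. It was at 24.5, 25.3, 24.3, 26.8 and 28.3 FPKM in A-PDK1KO replicates 1 to 5, against 19.2, 16.6, 20.8, 23.6 and 17.5 FPKM in control replicates 1 to 5. All A-PDK1KO hearts lay above all control hearts, with control replicate 4 closest. The log2 difference was 0.39 ± 0.09 (SE, limma adjusted p = 0.0455). The call was near the threshold. It was lost with any 1 heart left out other than control replicate 4 (9 of 10 fits, limma adjusted p from 0.0717 to 0.117), on the TPM scale (0.121), with no filter on low values (0.0538) and in the 6 hearts low in Myl7 (0.556).

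In the glutathione list, which holds Dpep1, 1 of 11 genes was called, 4 had an unadjusted p under 0.05, all higher, and 10 lay above 0, with a median log2 difference of 0.13. Over all tested genes 2.08% were called, 15.6% had an unadjusted p under 0.05 and 54.6% lay above 0, with a median of 0.02. With median-of-ratios scaling 9 lay above 0, and without A-PDK1KO replicate 2 it was 8. Gclm, the modifier subunit of glutamate-cysteine ligase, was at 11.6 ± 1.25 FPKM in A-PDK1KO hearts and 9.80 ± 1.11 FPKM in control hearts (SD, n = 5 each). Oplah, which turns oxoproline back into glutamate, was at 10.6 ± 0.873 FPKM in A-PDK1KO hearts and 8.71 ± 1.22 FPKM in control hearts. The aminopeptidase gene Lap3 was at 19.5 ± 1.17 FPKM in A-PDK1KO hearts and 20.7 ± 2.25 FPKM in control hearts. None of these 3 passed after adjustment.

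The same shares over all tested genes stand beside the lists that follow. They were 2.08% called, 15.6% with an unadjusted limma p under 0.05 and 54.6% above 0. Downstream of cysteine sulfinate and sulfide, 0 of 11 genes were called and 1 had an unadjusted limma p under 0.05. That was Got1, the cytosolic aspartate aminotransferase, which can also transaminate cysteine sulfinate. Its level was 314 ± 21.3 FPKM in A-PDK1KO hearts and 259 ± 32.9 FPKM in control hearts, and it was called under 1 of the settings tried, the scaling that ignored mitochondrial and haemoglobin transcripts. Its mitochondrial counterpart Got2 was at 182 ± 14.2 FPKM in A-PDK1KO hearts and 186 ± 22.2 FPKM in control hearts. Selenbp1, a methanethiol oxidase, was at 57.4 ± 1.32 FPKM in A-PDK1KO hearts and 58.2 ± 3.27 FPKM in control hearts.

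Among genes that use or move taurine and its precursors, 0 of 7 were called and 1 was higher at an unadjusted limma p under 0.05. Fmo1, a flavin monooxygenase able to oxidise hypotaurine to taurine, was at 4.45 ± 0.597 FPKM in A-PDK1KO hearts and 4.96 ± 0.244 FPKM in control hearts (SD). Mto1, needed to place a taurine-derived group on mitochondrial transfer RNAs, had a log2 difference of 0.03 ± 0.11 (SE). Lrrc8c, a subunit of the volume-regulated channel that releases taurine, was at 2.81 ± 0.202 FPKM in A-PDK1KO hearts and 3.08 ± 0.461 FPKM in control hearts. Fmo1, Mto1 and Lrrc8c each overlapped between genotypes. The gene with the unadjusted p under 0.05 was Pter, named after its values were seen. It was at 2.53 ± 0.184 FPKM in A-PDK1KO hearts and 1.90 ± 0.137 FPKM in control hearts (SD), and its groups did not overlap. Pter was not called on the main scale (limma adjusted p = 0.0732) but was when the scaling ignored mitochondrial and haemoglobin transcripts.

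In the methionine cycle, which supplies homocysteine to transsulfuration, 0 of 8 genes were called, with 1 higher and 1 lower at an unadjusted limma p under 0.05. Mat2a, which makes S-adenosylmethionine, was at 19.4 ± 4.69 FPKM in A-PDK1KO hearts and 19.6 ± 2.93 FPKM in control hearts. Its regulatory subunit gene Mat2b was at 15.8 ± 2.30 FPKM in A-PDK1KO hearts and 14.3 ± 1.04 FPKM in control hearts, and Ahcyl1 had a log2 difference of 0.04. The higher gene was Ahcy and the lower Gnmt, both named after their values were seen. Ahcy was at 7.34 ± 0.781 FPKM in A-PDK1KO hearts and 5.52 ± 0.502 FPKM in control hearts, without overlap (limma adjusted p = 0.0530). It was called under some other settings, among them the filter of 5 FPKM. Gnmt was at 1.76 ± 0.452 and 2.76 ± 0.494 FPKM, with overlap. In the list of coenzyme A and cysteamine genes, the source of the substrate of Ado, 0 of 7 were called, 1 was higher at an unadjusted limma p under 0.05 and 6 lay above 0. Of all tested genes 15.6% had such a p and 54.6% lay above 0. Pank1, a pantothenate kinase that starts coenzyme A synthesis, was at 8.42 ± 1.78 FPKM in A-PDK1KO hearts and 6.23 ± 0.582 FPKM in control hearts. Pank4 and Ppcs had log2 differences of 0.16 and 0.08.

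The 3 remaining lists also had 0 genes called, and each had 1 gene higher at an unadjusted limma p under 0.05. Of 4 cystine and cysteine transport genes, Slc1a5, a neutral amino acid exchanger, was at 2.02 ± 0.446 FPKM in A-PDK1KO hearts and 1.39 ± 0.202 FPKM in control hearts. Slc3a2, the heavy chain shared by several exchangers, was at 9.24 ± 1.35 FPKM in A-PDK1KO hearts and 9.41 ± 0.616 FPKM in control hearts, and Mfsd12, a lysosomal cysteine importer, had a log2 difference of 0.10. Of 3 genes for pyridoxal phosphate, the cofactor of Csad, Plpbp was at 5.19 ± 0.329 FPKM in A-PDK1KO hearts and 4.13 ± 0.391 FPKM in control hearts. Its groups did not overlap, and it was called with median-of-ratios scaling, on recovered reads and when the scaling ignored mitochondrial and haemoglobin transcripts, but not on the main scale. Pdxk, the pyridoxal kinase gene, had a log2 difference of -0.03. Of 4 genes for beta-alanine and carnosine, Cndp2, Carns1 and Abat had log2 differences of -0.03, -0.12 and -0.20. The fourth gene, Dpyd, which starts pyrimidine breakdown, was the 1 with an unadjusted limma p under 0.05. It was named after its values were seen, and its log2 difference was 0.28 ± 0.09 (SE).

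**Figure D3:**
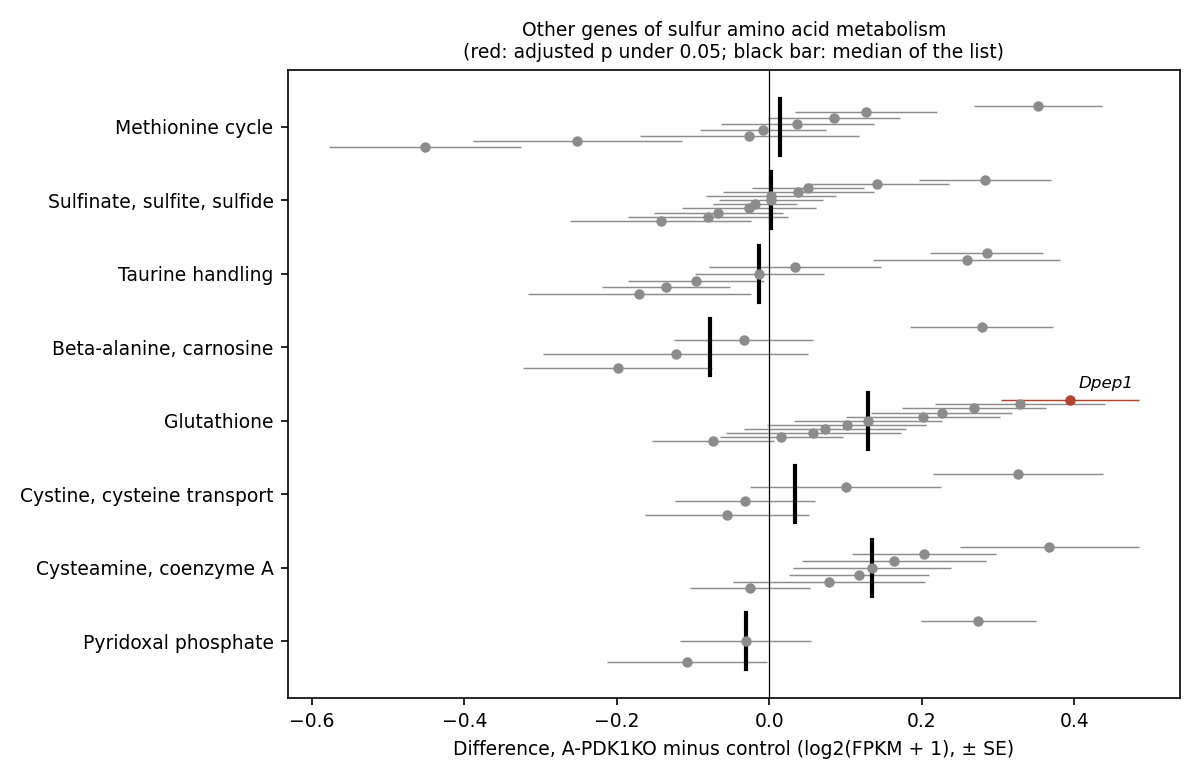
Difference between A-PDK1KO and control hearts on the log2(FPKM + 1) scale (horizontal axis) for each of the 55 tested genes of sulfur amino acid metabolism, by list (rows), with SE as whiskers and the median of each list as a black bar. Dpep1, at 0.39, is the 1 gene past the threshold (red), and the medians of the lists lie between -0.08 and 0.13.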

How the data were processed

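RNA was sequenced from 5 A-PDK1KO and 5 control hearts. Per the submitters' processing notes, the tools were Trimmomatic 0.38, HISAT2 2.1.0 and featureCounts 1.6.3, with the build mm10. The deposited values are FPKM, computed by the authors, 1 column per heart; a column of cluster numbers was not used. With exon lengths from GENCODE mouse release 21 the values came out as whole reads, within 0.05 of a read, in all hearts for 98.2% of genes, from 9249256 to 11384422 counted reads per heart. Genes averaging 1 FPKM or above over all hearts were tested on log2(FPKM + 1) with limma 3.58.1 in R 4.3.3 (empirical Bayes trend, two-sided, no covariate), and called at a Benjamini-Hochberg adjusted p under 0.05. The test was checked on simulated reads of 9802 genes, with the same dispersion for every gene and no shift in mitochondrial share between hearts. In those reads the test recovered 46% of 1.5-fold and 96% of 2-fold changes. Of 154 calls 12 fell on unchanged genes, and 0 genes were called when no gene was changed. These figures hold for the simulated reads, and the test was not checked under shifts in mitochondrial share. Correlations used exact permutations within genotypes, computed in Python 3.11.15.

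The genes and lists were chosen with earlier results of these data known. The text names the genes of the set, Pdpk1, called list genes, up to 3 uncalled genes of highest level per list, and for likeness 5 genes for Cdo1 and 3 for each other gene. Pter, Ahcy, Gnmt and Dpyd were named beyond this rule, after their values were seen. Limma p values judge a genotype difference against the spread between these mice, and permutation p values judge a correlation against shuffles within genotypes. A gene covered by the rule for naming genes is not reported here.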

Additional observations from a re-analysis of the deposited data

Results flagged for a closer look

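For 31 genes, each checked in both groups, a heart was far from the other 4 in 5 of 62 groups. The measure was the gap to the nearest heart over the range of the group (limit 0.71). About 1 in 20 groups is picked out by chance. Mpst was at 11.0 FPKM in control replicate 1, against 14.5 to 15.7 FPKM in the other control hearts. Control replicate 4 was high for Abat (3.36 FPKM, against 2.51 to 2.75), Carns1 (3.86 FPKM, against 1.86 to 2.35) and Mfsd12 (2.29 FPKM, against 1.36 to 1.55). A-PDK1KO replicate 2 was low for Got2 (157 FPKM, against 183 to 192).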

How the results depend on the processing

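The count of genes called over the table was 208, and it was 63 on the TPM scale, 390 without mitochondrial and haemoglobin genes in the scaling, 4 in the 6 hearts low in Myl7, and 57 to 150 with 1 heart left out. Of those 390, 82.8% were higher, against 58.2% of the 208, 49.3% with median-of-ratios factors and 40.9% without A-PDK1KO replicate 2. Of the 5 genes described, 1 was called, Cdo1, whose known difference led to the set, so nothing is read from this count. It was 0 with a filter of 5 FPKM, which Cdo1 did not pass, and 0 in the 6 hearts low in Myl7, which are 3 against 3. Of the 55 list genes 1 was called, and 0 with no filter, on the TPM scale, with the replicate block and in the 6 hearts low in Myl7. It was 2 with a filter of 5 FPKM, 2 with median-of-ratios factors, 2 on recovered reads, 5 without mitochondrial and haemoglobin genes in the scaling, and 0 to 1 with 1 heart left out. Apart from the stated effect of fewer hearts or genes, the cause was not tested.

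The r of Ado and Slc6a6 turned to -0.13 with median-of-ratios factors. The number of correlated pairs was 0 in all settings except without A-PDK1KO replicate 1 or 3, where it was 1. Correlations on recovered reads were not run. The labels do not say that replicate numbers pair mice: deviations of same-numbered hearts correlated between -0.12 and 0.09, and 0 of 5 A-PDK1KO hearts correlated best with the control of its own number. With the replicate block 153 genes were called over the table, and Dpep1 was not (limma adjusted p = 0.0745). Depth limits Cdo1 most, at 6 to 26 reads per control heart.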
